A study of Ovis aries with 32 samples.

Results

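The mitochondrially encoded subunits of respiratory complex I are ND1, ND2, ND3, ND4, ND4L, ND5 and ND6. They were taken from the expression table by gene name, which gave 7 of 30722 rows. The other 6 of the 13 mitochondrially encoded protein genes (COX1, COX2, COX3, ATP6, ATP8 and CYTB) and the nuclear genes of complex I served for comparison. The libraries came from Tan sheep, a fat-tailed Chinese breed, in a trial of 24 male animals aged 3 months with 12 sheep on each diet. The SA diet was the basal pellet with succinic acid at 1% of its dry matter, and the CON diet was the basal pellet alone. Feeding lasted 60 days, with 10 days of adaptation before it. Each diet gave 4 libraries of every tissue, 32 in all, from samples labelled as liver, tail fat, hypothalamus or pituitary. The protocol takes 4 sheep per diet for all tissues, but does not say that equal library numbers mark the same sheep. The tissues of a diet are therefore not independent samples, whatever the numbers mean.

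Complex I takes electrons from NADH, passes them to ubiquinone and pumps protons across the inner mitochondrial membrane. Its membrane arm is built on the 7 subunits encoded in mitochondrial DNA, and the rest of the enzyme is built from nuclear-encoded proteins. ND2, ND4 and ND5 are related to bacterial antiporters and hold proton channels, ND1 lies where ubiquinone enters, and ND3, ND4L and ND6 lie between ND1 and the antiporter-like subunits. Mammalian mitochondrial DNA is transcribed as long precursors that are cut into separate RNAs, largely at the transfer RNAs between the genes. Succinate, the compound fed in the SA diet, is oxidised by complex II and not by complex I.

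Values are TPM, a measure of transcript abundance in which each gene's estimate is divided by transcript length and scaled within the library. Comparisons of TPM between genes are still approximate, above all where genes overlap. TPM is also relative, so a larger share for some transcripts lowers the values of all others. The sequencing depth behind each library is unknown. In bulk tissue, fewer cells of a type and less RNA per cell cannot be told apart. Mitochondrially encoded transcripts held between 20.2% and 71.0% of TPM, depending on the library. Among the pituitary-labelled libraries, SA 4 stood apart with a share of 68.8%, against 36.7% to 51.1% in the other 3 SA libraries and 41.3% to 45.0% in the 4 CON libraries. The hypothalamus-labelled and pituitary-labelled libraries were rich in neuronal and oligodendrocyte markers but not in hormone genes. In the pituitary-labelled libraries the 7 measured anterior pituitary markers, PRL among them, summed to only 3.00 to 5.93 TPM in SA and 3.01 to 4.98 TPM in CON, and CGA and FSHB were listed at 0 in all 8. The libraries also split by the overlapping genes SELENOP and CCDC152. CCDC152 stood at 168 to 842 TPM in the 4 liver SA libraries and at 0 in the 4 liver CON libraries. SELENOP, which encodes a selenium transport protein, stood at 241 to 773 TPM in liver SA and 4282 to 5758 TPM in liver CON. In tail fat, SA 1 and CON 2 had 0.07 and 0.12 TPM of CCDC152, against 57.8 to 186 TPM in the other 6 libraries. In liver this split coincides with diet and the 2 cannot be told apart.

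Of the 7 subunit genes, 6 were measured. ND6 (ENSOARG00020000032), the only protein gene on its strand of mammalian mitochondrial DNA, was listed at 0 in all 32 libraries. The same was true of 21 of the 22 mitochondrial transfer RNA genes and of 17.0% of all rows, 5212 in number. ND6 overlaps ND5 in the RefSeq annotation of sheep, and ND4L overlaps ND4. The split of reads between overlapping partners is uncertain. The libraries were made from RNA captured by its poly(A) tail, and whether capture, strand or read assignment bears on ND6 was not tested. All 6 measured genes passed the filter on low values, 1 TPM or more in at least 4 libraries, in each tissue.

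The levels of the 6 measured transcripts differed widely from each other. In CON libraries labelled hypothalamus the mean TPM ran in the order ND4L, ND3, ND4, ND2, ND1 and ND5, with ND4L 37.1-fold above ND5. ND5 (ENSOARG00020000031) was the lowest in all 8 groups, and the highest member exceeded it by 29.0-fold in SA libraries labelled hypothalamus to 84.9-fold in liver CON. Hypothalamus-labelled CON libraries averaged 39645 ± 6301 TPM for ND4L, 34249 ± 5763 TPM for ND3, 33964 ± 5213 TPM for ND4 and 1068 ± 290.4 TPM for ND5 (SD, n = 4). ND4L, ND3 and ND4 are neighbours in that order whose ranges overlapped. The ND4L gene overlaps ND4 and the ND5 gene overlaps ND6, so folds that involve them are approximate. The order was not fixed between tissues. ND3 led in tail fat CON and ND4 in liver SA and tail fat SA, while ND2 was next to last in liver CON and in the third place in liver SA. These orders compare means, and neighbours other than ND5 overlapped in at least some groups.

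**Figure D1:**
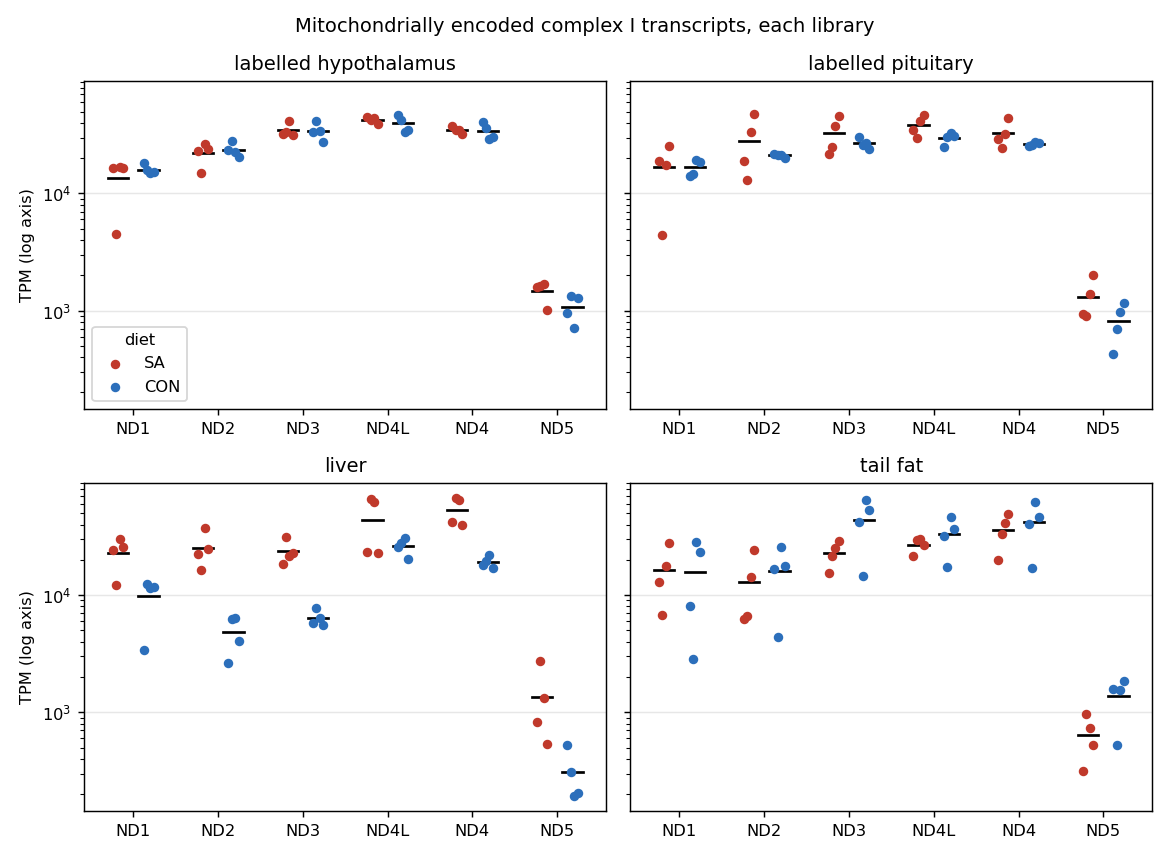
TPM of the 6 measured subunit genes in each library, on a log axis, with SA (red) left of CON (blue) in each pair and a bar at the mean of 4 libraries. ND5 is the lowest gene in all 4 panels, and in liver the SA points of ND2, ND3, ND4 and ND5 lie wholly above the CON points.

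The comparison of the diets asked whether succinic acid feeding was accompanied by a change in these transcripts in any tissue. In liver, 5 of the 6 measured genes were higher in SA libraries, by 2.51-fold to 5.30-fold. They are ND1, ND2, ND3, ND4 and ND5. ND4L missed the threshold. Across all 11582 genes tested in liver, 5.21% were called higher and 59.1% lower, and all genes had a median change of -0.83 on the log2 scale. The median over the 6 subunit genes was 1.66.

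ND2 (ENSOARG00020000011), an antiporter-like subunit, had 22439, 16357, 37343 and 24861 TPM in liver SA libraries 1 to 4, against 2642, 6307, 6414 and 4053 TPM in liver CON libraries 1 to 4. The groups did not overlap, and the lowest SA library stood well above the highest CON library. The change in log2(TPM + 1) was 2.40 ± 0.41 (SE), with an adjusted p of 0.000798 in limma. Here and below, adjusted p-values are from limma with Benjamini-Hochberg adjustment over all genes tested. ND3 (ENSOARG00020000025) had 18394, 31479, 21547 and 23092 TPM in liver SA, against 5836, 7709, 6421 and 5591 TPM in liver CON. These groups did not overlap either, and the log2 change was 1.87 ± 0.32 with an adjusted p of 0.000723 in limma. ND3 lies beside ND1 near the foot of the arm that receives electrons.

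ND4 (ENSOARG00020000027), another antiporter-like subunit, had 42399, 67917, 64609 and 39479 TPM in liver SA, against 18111, 19689, 21817 and 16907 TPM in liver CON. All 4 SA values exceeded all 4 CON values, with a log2 change of 1.45 ± 0.33 and an adjusted p of 0.00396 in limma. ND5, the antiporter-like subunit at the far end of the membrane arm, had 834, 2732, 1327 and 536 TPM in liver SA, against 521, 312, 193 and 205 TPM in liver CON. The groups came close without overlapping, since SA 4 exceeded CON 1 by little. The log2 change of ND5 was 1.99 ± 0.53 with an adjusted p of 0.00858 in limma.

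ND1 (ENSOARG00020000007), the subunit at the ubiquinone entry, had 24041, 12172, 30094 and 25648 TPM in liver SA, against 3429, 12340.2, 11493 and 11712 TPM in liver CON. SA 2 lay within the CON range, and CON 1 lay far below the other 3 CON libraries. The log2 change was 1.33 ± 0.50 with an adjusted p of 0.0412 in limma. The call of ND1 was lost when any of SA 1, SA 3, SA 4, CON 1, CON 3 or CON 4 was left out, with adjusted p-values of 0.0534 to 0.0995 in limma, and without CON 1 the log2 change was 0.88. ND4L (ENSOARG00020040348), the small subunit whose gene overlaps ND4, had 23290.2, 65869, 62613 and 22739 TPM in liver SA, against 25968, 27721, 30534 and 20329 TPM in liver CON. SA 1 and SA 4 lay among the CON libraries and SA 2 and SA 3 far above them. The log2 change of ND4L was 0.57 ± 0.45, with an adjusted p of 0.290 in limma.

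The other mitochondrially encoded protein genes of liver were also called higher, with 1 exception. COX1, COX2 and COX3, subunits of cytochrome c oxidase, ATP6 of the ATP synthase and CYTB of complex III were called higher in SA, by 1.40 to 2.31 on the log2 scale. ATP8, which encodes the smaller mitochondrially encoded subunit of the ATP synthase, was called lower, with 31860.0 to 40739.9 TPM in liver SA, against 55116 to 64591 TPM in liver CON. Its log2 change was -0.80 ± 0.30 with an adjusted p of 0.0398 in limma, and it turned to 0.18 and was not called when scaled to nuclear-encoded transcripts. It was called lower at -1.55 under quantile normalization and at -2.08 when scaled to mitochondrially encoded protein transcripts. ATP6, the next protein gene in the order of the mitochondrial genome, was called higher at 1.91. Overlaps were looked up for the complex I genes only, so a split of reads between ATP8 and ATP6 was not tested. All 13 protein genes together with ribosomal and transfer RNAs held 52.5% to 71.0% of TPM in liver SA and 20.2% to 27.9% in liver CON.

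**Figure D2:**
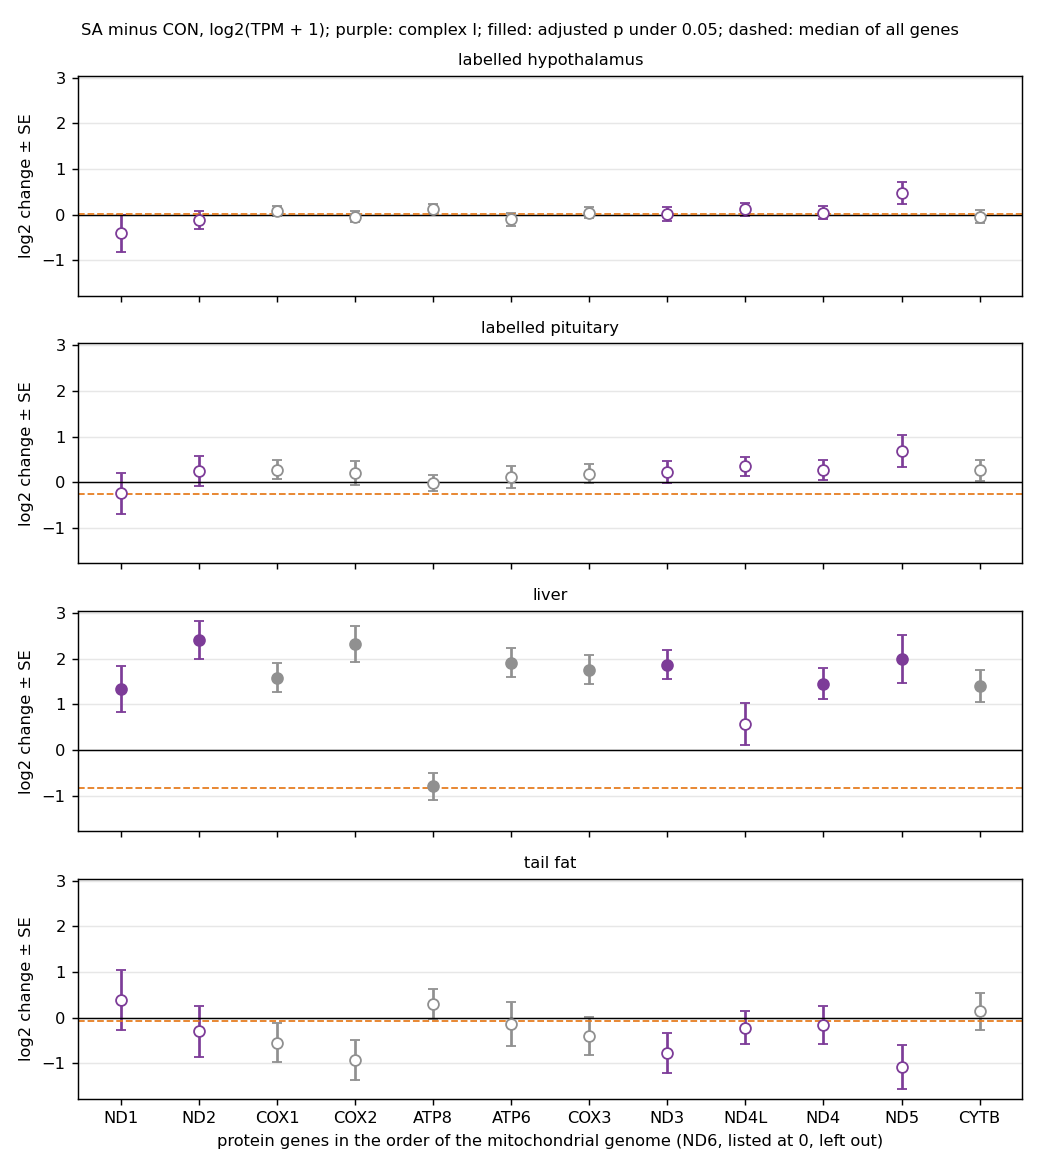
Change of log2(TPM + 1), SA minus CON, and its SE for the measured mitochondrially encoded protein genes, in the order of the mitochondrial genome. Complex I genes are purple, filled points passed an adjusted p of 0.05, and the dashed line is the median of all genes tested. In liver 5 complex I genes are filled above 0, ND4L is open and ATP8 is filled below 0.

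Several other measures moved with diet in the same 8 liver libraries. All 8 hepatocyte markers were found, and they summed to 6151 to 22144 TPM in SA and 85444 to 96104 TPM in CON. The 6 macrophage markers summed to 135 to 377 TPM in SA and 418 to 696 TPM in CON, and the 5 endothelial markers to 8.10 to 15.9 TPM in SA and 67.5 to 87.9 TPM in CON. None of these 3 lists overlapped between the diets. The oligodendrocyte, adipocyte and choroid plexus lists were also lower in SA without overlap, adipocyte markers at 4.92 to 9.68 TPM against 10.6 to 15.4 TPM in CON. Neuron and synapse markers, at 0.40 TPM or less in sum, were higher in SA. The hypothalamus neuron, anterior pituitary and erythroid lists overlapped. With 59.1% of all genes called lower in liver, the lack of overlap is not particular to the 3 lists. The number of genes at 1 TPM or more was 10216 to 10611 in SA and 11504 to 12057 in CON. Summed mitochondrial ribosomal RNA was 282 to 4859 TPM in liver SA and 62.7 to 117.5 TPM in liver CON, also without overlap. The part of these differences, and of the SELENOP and CCDC152 split, in the result for the complex I genes was not tested.

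The result in liver depended on what the values were scaled to. Scaled to nuclear-encoded transcripts alone, all 6 measured genes were called higher, ND4L with a log2 change of 1.55 and an adjusted p of 0.0436 in limma. That scaling moved the median of all genes by 0.73, to -0.11, and called 1723 of 11582 genes higher and 2228 lower. Scaled to the summed mitochondrially encoded protein transcripts, ND2 alone was called, with a log2 change of 1.12 and an adjusted p of 0.0439 in limma, while ND4L turned to -0.71. That scaling moved the median of all genes by -1.01 and called 150 of 11582 genes higher and 10083 lower.

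Relative to each other, the complex I transcripts held a nearly steady place among mitochondrially encoded messages. Their sum was 26.2% to 35.8% of mitochondrially encoded protein TPM in liver SA and 27.0% to 29.3% in liver CON. Across all 32 libraries that share lay between 25.9% and 35.8%, while the mitochondrial share of the library ranged from 20.2% to 71.0%. The makeup within the sum was less steady. ND4L over ND4 was 0.549, 0.970, 0.969 and 0.576 in liver SA, against 1.43, 1.41, 1.40 and 1.20 in liver CON. The 2 groups did not overlap, and SA 1 and SA 4 were the lower pair. In tail fat the ratio was 1.09, 0.896, 0.735 and 0.543 in SA and 0.780, 1.02, 0.735 and 0.780 in CON. The highest ratio of each diet in tail fat belonged to SA 1 and CON 2, the libraries with almost no CCDC152. In the hypothalamus-labelled and pituitary-labelled libraries it ran between 0.978 and 1.29. The overlap of the 2 genes leaves the reads behind this ratio uncertain.

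**Figure D3:**
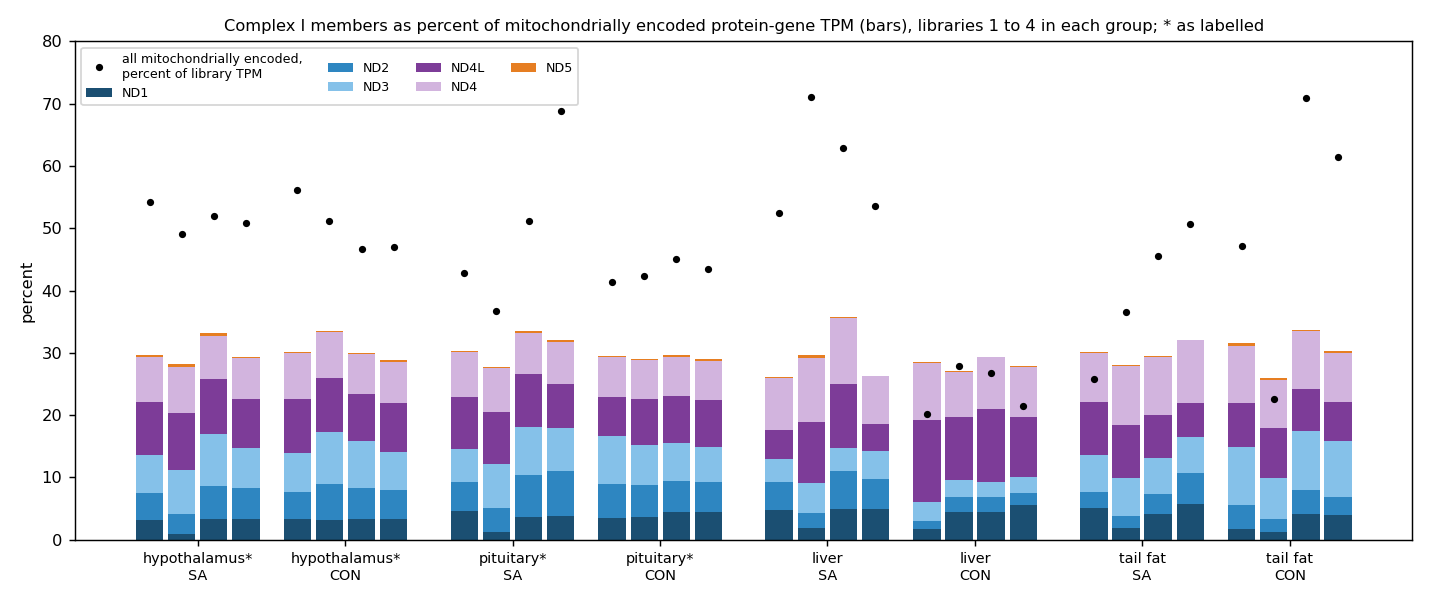
Bars give each measured subunit gene as a percent of mitochondrially encoded protein TPM in libraries 1 to 4 of each group, and dots give all mitochondrially encoded transcripts as a percent of library TPM. The bars total 25.9% to 35.8% while the dots range from 20.2% to 71.0%.

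In tail fat none of the 6 measured genes passed the test, and 5 of the 6 had estimates below 0. Of 11185 genes tested, 0.277% were called higher and 0.420% lower, and 1596 had an unadjusted p below 0.05 in limma. ND5 had 318, 966, 732 and 524 TPM in tail fat SA, against 1579, 521, 1564 and 1838 TPM in tail fat CON. CON 2 lay within the SA range and the other 3 CON libraries above all SA libraries. Its log2 change was -1.08 ± 0.48, with an unadjusted p of 0.0388 and an adjusted p of 0.327 in limma. ND3 had 15334, 21418, 25266 and 28814 TPM in tail fat SA, against 41691, 14426, 64449 and 52826 TPM in tail fat CON, and again CON 2 alone lay below the other CON libraries. The log2 change of ND3 was -0.77 ± 0.44 with an adjusted p of 0.441 in limma.

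The remaining tail fat estimates were 0.38 for ND1, -0.30 for ND2, -0.16 for ND4 and -0.22 for ND4L on the log2 scale. Their adjusted p-values in limma ran from 0.823 to 0.901. ND1 spread most within the diets, from 6753 to 28092 TPM in SA and from 2868 to 28454 TPM in CON. When limma weighted each library by its fit, ND3 at -0.82 and ND5 at -1.09 were called lower in tail fat SA, with adjusted p-values of 0.00880 and 0.00305 in limma. The same weights raised the calls among all genes to 2839, against 78 without them. Without SA 1 and CON 2, none of the 6 passed. ND5 was then at -1.20 with an adjusted p of 0.0704 in limma, ND3 at -1.06 with an adjusted p of 0.0775 in limma, and ND1 at -0.21. The mitochondrial share of TPM was 25.7%, 36.5%, 45.5% and 50.7% in tail fat SA libraries 1 to 4, against 47.1%, 22.6%, 70.8% and 61.4% in tail fat CON, so the libraries with little CCDC152 were the lowest of their diet.

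In the hypothalamus-labelled libraries no gene passed the test. Of 14126 genes tested 0% were called, 493 had an unadjusted p below 0.05 in limma, and a joint limma fit of all 32 libraries called 3. The 6 estimates ran from -0.41 for ND1 to 0.48 for ND5, with adjusted p-values of 0.947 to 0.996 in limma. ND1 had 16364, 4543, 16931 and 16382 TPM in SA, against 18029, 15708, 14839 and 15350.2 TPM in CON. SA 2 alone lay below the CON range. Without SA 2 the log2 change of ND1 was 0.055. ND5 had 1591, 1606, 1684 and 1003 TPM in SA, against 954, 1321, 711 and 1288 TPM in CON, with SA 4 inside the CON range and the other 3 SA libraries above it. ND2, ND3, ND4 and ND4L had log2 changes between -0.12 and 0.11.

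In the pituitary-labelled libraries likewise 0% of 14472 genes were called. An unadjusted p below 0.05 in limma was reached by 218 genes, the joint limma fit called 4 genes and limma with library weights called 165. The 6 estimates were -0.24 for ND1, 0.25 for ND2, 0.23 for ND3, 0.27 for ND4, 0.35 for ND4L and 0.69 for ND5, beside a median of all genes of -0.27, and their adjusted p-values in limma ran from 0.747 to 0.802. ND2 had 18874, 13121, 33631 and 47414 TPM in SA, against 21624, 21435, 21417 and 20102 TPM in CON. The SA libraries lay on both sides of a tight CON group, with SA 4 the highest. Without SA 4 the log2 change of ND2 was -0.060. ND1 had 19076, 4447, 17566 and 25575 TPM in SA, against 14088, 14628, 19205 and 18673 TPM in CON, and SA 2 was again far below the rest. Without SA 2 the log2 change of ND1 was 0.31.

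An interaction F-test in limma, over the 32 libraries, compared the diet effect between the 4 tissues. It passed for ND2 (F = 8.09, adjusted p = 0.00450), ND3 (F = 13.2, adjusted p = 0.000349), ND4 (F = 6.31, adjusted p = 0.0118) and ND5 (F = 8.12, adjusted p = 0.00422) in limma. It did not pass for ND1, with an adjusted p of 0.327 in limma, or for ND4L, with an adjusted p of 0.416. Of 16360 genes tested, 27.0% passed, and more of them passed when scaled to mitochondrially encoded protein transcripts. Scaled to mitochondrially encoded protein transcripts, none of the 6 passed, with adjusted p-values of 0.117 for ND2, 0.155 for ND3, 0.990 for ND4 and 0.133 for ND5 in limma.

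On the control diet, liver had the lowest mean TPM of the 4 tissues for each of the 6 measured genes. Liver CON averaged 4854 ± 1833 TPM for ND2, against 16088 ± 8810.1 TPM in tail fat, 21144 ± 701 TPM in pituitary-labelled and 23677 ± 3180.3 TPM in hypothalamus-labelled CON libraries (SD, n = 4 each). In liver minus tail fat, 4 of the 6 genes were lower and none higher, beside 20.8% of all genes called lower and 23.3% called higher. They were ND2 at -1.56, ND3 at -2.58, ND4 at -0.99 and ND5 at -2.13 on the log2 scale, with adjusted p-values of 5.99e-06 to 0.0102 in limma. Tail fat CON 2, the library with almost no CCDC152, was the closest of the tail fat libraries to liver CON for ND3, at 14426 TPM. Without it the change of ND3 was -3.04, and ND4L also passed at -0.54, with an adjusted p of 0.0220 in limma.

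In liver minus hypothalamus, 5 of 6 were lower and none higher, but 51.5% of all genes were called lower and 16.7% higher, with a median over all genes of -0.73. ND2 at -2.37, ND3 at -2.42 and ND5 at -1.87 lay well below that median, while ND4 at -0.82 and ND4L at -0.60 lay near it. The call of ND4L, with an adjusted p of 0.0443 in limma, was lost in 11 of the 16 fits that left out 1 CON library, with an adjusted p of up to 0.134. The call of ND4, at an adjusted p of 0.0187 in limma, was lost without hypothalamus CON 1, where it was 0.0521. In liver minus pituitary, 3 of 6 were lower, ND2 at -2.21, ND3 at -2.07 and ND5 at -1.42, beside 58.3% of all genes lower and 14.8% higher. Their adjusted p-values in limma were 0.000112, 2.88e-05 and 0.00575. Without tail fat CON 2 in the fit, ND1 and ND4 were called lower as well, with adjusted p-values of 0.0459 and 0.0134 in limma.

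The other 3 tissue contrasts called none of the 6 genes. In tail fat minus hypothalamus the estimates ran from -0.80 for ND2 to 0.26 for ND5, while 14.3% of all genes were higher and 53.2% lower. In tail fat minus pituitary they ran from -0.65 for ND2 to 0.70 for ND5, while 11.9% were higher and 59.4% lower. In hypothalamus minus pituitary they ran from -0.05 for ND1 to 0.44 for ND5, while 4.48% were higher and 8.63% lower. Tail fat CON 2 bore on the first 2 of these. Without it ND3 and ND4 were called higher in tail fat minus hypothalamus, by 0.62 and 0.55 on the log2 scale with adjusted p-values of 0.00680 and 0.00903 in limma. Without it ND3, ND4 and ND5 were called higher in tail fat minus pituitary, by 0.97, 0.90 and 1.12 with adjusted p-values of 0.000171, 0.000164 and 0.00942. Without tail fat CON 3, ND2 was called lower in both contrasts, at -1.11 and -0.96 on the log2 scale, with adjusted p-values of 0.0237 and 0.0451 in limma.

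ND1 and ND2 are neighbouring protein genes of the mitochondrial genome, but their ratio was not fixed. The pattern that follows was chosen after its values were seen and carries no test. Within the SA diet, library 2 had the lowest ratio of ND1 TPM to ND2 TPM in every tissue, at 0.302 in hypothalamus-labelled, 0.339 in pituitary-labelled, 0.744 in liver and 1.03 in tail fat libraries. SA library 1 had the highest ratio in every tissue, at 0.709, 1.01, 1.07 and 2.08 in the same tissues. Within the CON diet, library 4 was the highest and library 1 the lowest in pituitary-labelled, liver and tail fat libraries. In hypothalamus-labelled CON libraries, library 1 was the highest and library 2 the lowest. The summed mitochondrial ribosomal RNA was also lowest in SA 2 in the hypothalamus-labelled libraries, at 1248 TPM against 3640.1 to 5545 TPM in the other 3 SA libraries. In the pituitary-labelled libraries it was 1472 TPM in SA 2, against 3337 to 7733 TPM in the other 3 SA libraries. In liver SA 2 was again the lowest, at 282 TPM, but close to SA 3 at 336 TPM. In tail fat the lowest was SA 1, at 107 TPM, which had the highest ratio of ND1 to ND2, while SA 2 had 272 TPM. By tissue, the ratio in liver was 0.744 to 1.07 in SA and 1.30 to 2.89 in CON, with no overlap, and in tail fat 1.03 to 2.08 in SA and 0.482 to 1.31 in CON, with overlap.

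**Figure D4:**
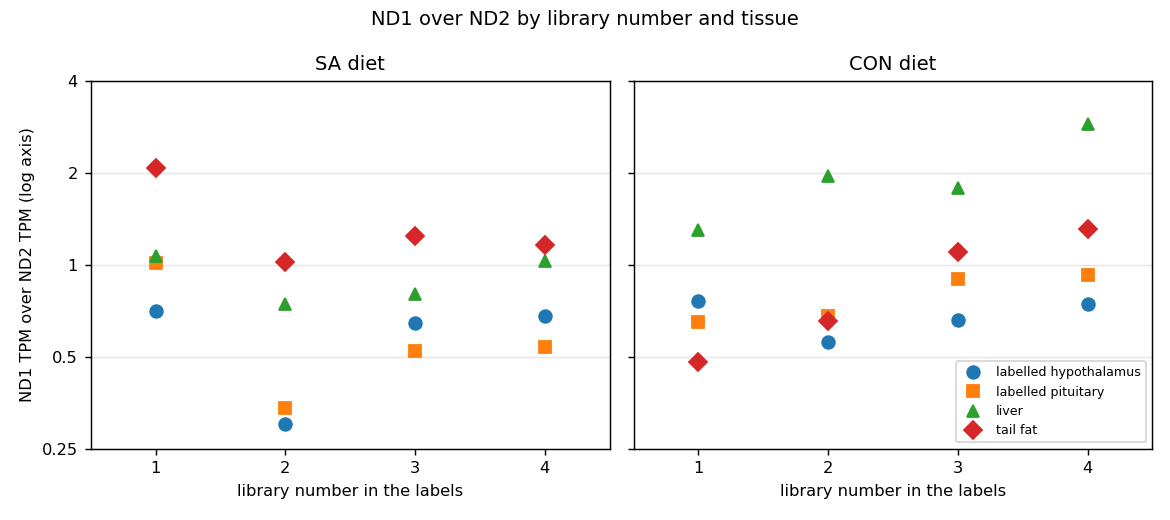
Ratio of ND1 TPM to ND2 TPM, on a log axis, by library number and tissue, with SA on the left and CON on the right. SA library 2 is the lowest point of each tissue in the left panel, from 0.302 in hypothalamus-labelled to 1.03 in tail fat libraries.

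Most accessory genes of complex I were lower in liver SA, where most mitochondrially encoded subunits were higher. The counts below stand beside 59.1% of all genes called lower, 5.21% called higher and an all-gene median of -0.83 on the log2 scale in liver. Nuclear core subunits carry the flavin and the iron-sulfur clusters that pass electrons on. Of 7 tested, NDUFS8 was higher and 3 were lower in liver SA, and the median of the 7 was -0.32. A difference from the share of all genes was not tested in a list this small. NDUFS8 averaged 96.4 ± 36.5 TPM in liver SA and 35.2 ± 4.80 TPM in liver CON (SD, n = 4 each), with a log2 change of 1.35. It was called higher at 2.33 under nuclear scaling and at 2.36 under quantile normalization. Scaled to mitochondrially encoded protein transcripts it was at 0.092 and was not called, beside an all-gene median of -1.84. Among those that were lower, NDUFS1 and NDUFV2, which hold iron-sulfur clusters, had log2 changes of -1.63 and -1.59. Adjusted p-values of NDUFS8, NDUFS1 and NDUFV2 ran from 0.000523 to 0.00476 in limma.

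Accessory subunits surround the core and do not take part in catalysis directly. In liver 19 of the 21 tested were lower and none was higher, with a median log2 change of -1.53. NDUFA2, NDUFS4, NDUFB11 and NDUFB5 had log2 changes of -2.43, -2.23, -2.04 and -2.84, with adjusted p-values of 0.000104 to 0.000235 in limma. Of 15 assembly factors 9 were lower and none was higher, and the median was -0.92. NDUFAF1, which acts on an early intermediate of the membrane arm, averaged 2.01 ± 0.91 TPM in liver SA and 13.0 ± 2.27 TPM in liver CON. NUBPL, which delivers iron-sulfur clusters to complex I, fell by 1.63 on the log2 scale, TMEM126A by 1.37 and NDUFAF2 by 0.98. The median of all genes, -0.83, is close to that of the assembly factors. The 9 of 15 assembly factors are likewise close to the 59.1% of all genes called lower. Scaled to nuclear-encoded transcripts alone, 7 of 21 accessory subunits were lower and none was higher, with a median of -0.59, while 3 of 7 core subunits were higher and 2 lower, with a median of 0.65. Under the same scaling 2 of 15 assembly factors were higher and 2 lower. These counts stand beside 1723 of 11582 genes called higher and 2228 lower under that scaling, with an all-gene median of -0.11.

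In TPM as deposited, genes that make or process mitochondrial RNA moved about as all genes did in liver SA. Of 24 tested, 1 was higher and 15 were lower, close to the 59.1% of all genes called lower, with a median log2 change of -0.92 beside -0.83 for all genes. Scaled to nuclear-encoded transcripts, 1 was higher and 9 were lower, with a median of -0.03. That scaling called 1723 of 11582 genes higher and 2228 lower. The list thus had a larger share lower and a smaller share higher than all genes, a difference that was not tested. The gene that was higher, named here after its values were seen, is FASTK, whose mitochondrial form is known from mouse and human cells to be needed for the ND6 message. It averaged 16.2 TPM in liver SA and 8.79 TPM in liver CON, with a log2 change of 0.79 ± 0.22 and an adjusted p of 0.0106 in limma. It was called higher at 1.75 under nuclear scaling and at 1.70 under quantile normalization. Under mitochondrial scaling it turned to -0.40 and was not called, beside an all-gene median of -1.84. LRPPRC, which stabilises mitochondrial messages, averaged 2.29 ± 0.39 TPM in liver SA and 11.9 ± 1.15 TPM in liver CON, with a log2 change of -1.97 and an adjusted p of 3.54e-05 in limma. MTERF4, which acts in mitochondrial ribosome assembly, had a log2 change of -1.89. FASTKD5 and FASTKD2, RNA-binding proteins of mitochondrial RNA processing, had log2 changes of -1.45 and -1.71. Of 10 genes of mitochondrial DNA maintenance, 4 were lower and none was higher, beside 59.1% of all genes called lower. The median was -0.51 beside -0.83 for all genes, and a difference from all genes was not tested in a list this small. Scaled to nuclear-encoded transcripts, 2 of the 10 were lower and 3 higher. The 4 lower as deposited were SSBP1, which binds single-stranded mitochondrial DNA, at -2.05, the nucleotide supply enzymes RRM2B at -1.37 and TK2 at -0.62, and the topoisomerase TOP3A at -0.62.

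In the other tissues no gene of these lists passed the test in TPM as deposited. Among the other scalings, filters, pseudocounts, weights and blocks tried in the single-tissue fits, 4 gave calls in tail fat and none gave any in the hypothalamus-labelled or pituitary-labelled libraries. The genes named next were chosen after their values were seen. The assembly factor ECSIT was called higher in tail fat SA under quantile normalization at 1.76, nuclear scaling at 1.58 and the replicate block at 1.88, with adjusted p-values of 0.0420, 0.0350 and 0.0248 in limma. The assembly factor FOXRED1 was called higher under quantile normalization at 1.18, and the accessory subunit NDUFA6 under nuclear scaling at 0.96, with adjusted p-values of 0.0446 and 0.0333 in limma. With weighted libraries, 6 of 7 core and 17 of 21 accessory subunits and 5 of 15 assembly factors were called higher in tail fat SA, and 1 assembly factor lower. Of the mitochondrial RNA genes 2 of 21 were then higher and 1 lower, and 3 of 11 DNA maintenance genes were higher, beside 1466 of 11185 genes called higher and 1373 lower. In tail fat all 7 nuclear core and all 21 accessory subunits had estimates above 0 (6 of 7 and 20 of 21 under quantile normalization), with medians of 0.93 and 0.89, while the median of the 6 mitochondrially encoded subunits was -0.26 and that of all genes was -0.06. In the pituitary-labelled libraries the medians were -0.40 for the core and -0.24 for the accessory subunits, while that of the mitochondrially encoded subunits was 0.26 and that of all genes was -0.27. Under quantile normalization they were -0.11, 0.044 and -0.043, beside -0.023 for all genes. In the hypothalamus-labelled libraries all 3 medians lay between -0.03 and 0.03.

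**Figure D5:**
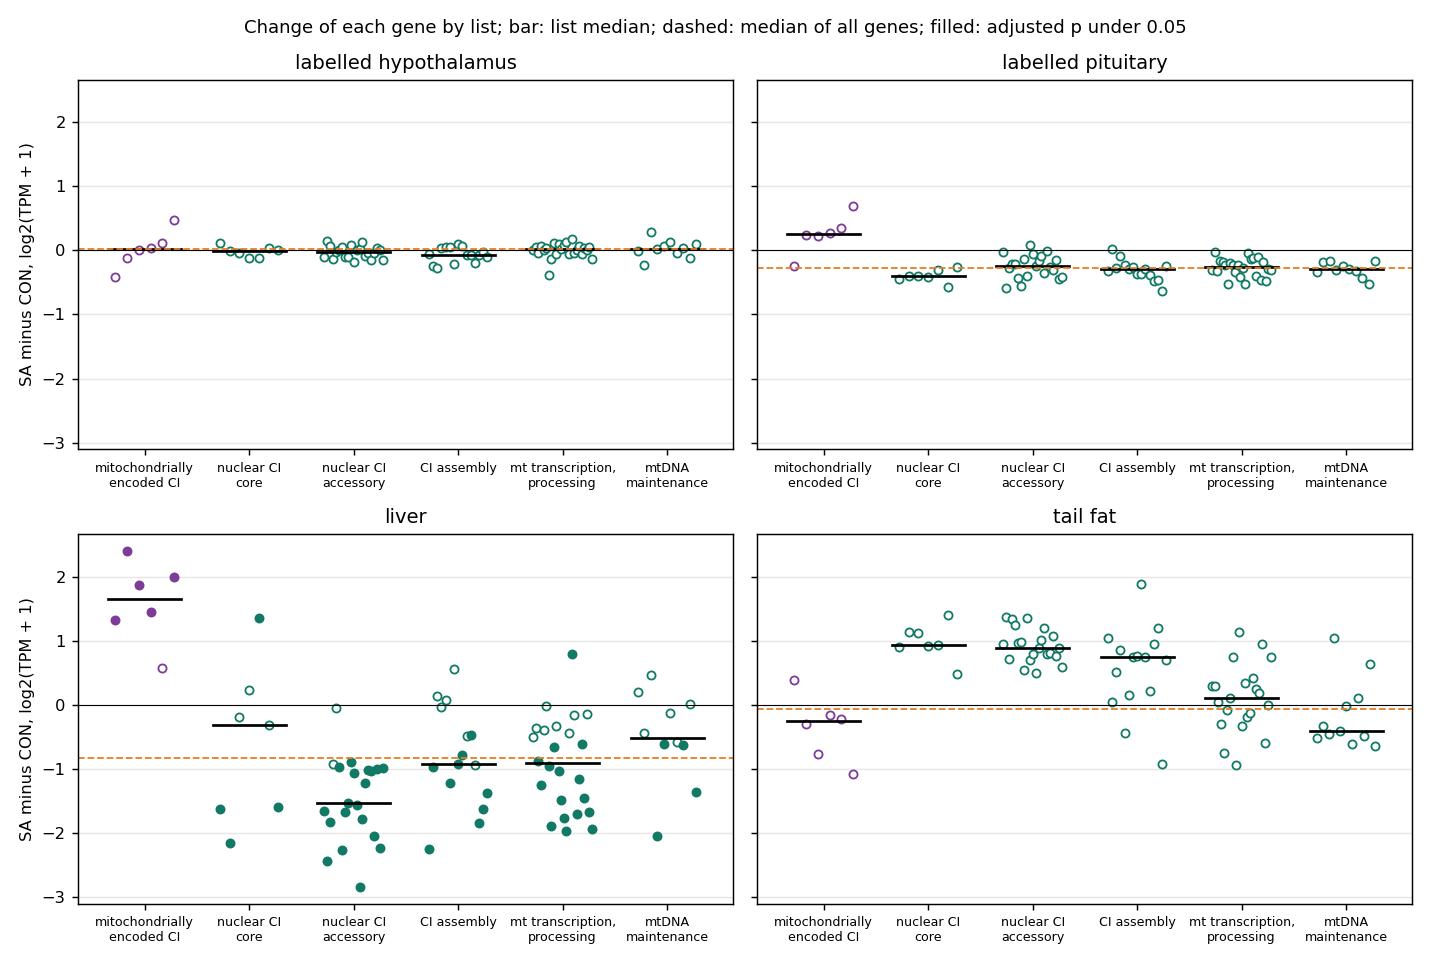
Change of log2(TPM + 1), SA minus CON, of each gene, by list and tissue, with a bar at the list's median, a dashed line at the median of all genes tested and filled points for an adjusted p under 0.05. In liver the mitochondrially encoded complex I genes have a median of 1.66 and the nuclear accessory genes a median of -1.53; in tail fat the medians are -0.26 and 0.89.

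Set against each other within a library, the median TPM of the 6 mitochondrially encoded subunits exceeded the median TPM of the 28 nuclear-encoded subunits found in the table by 823-fold to 1733-fold in liver SA and by 89.9-fold to 180-fold in liver CON. The 2 diets did not overlap. In tail fat the ratio was 70.5 to 191 in SA and 68.7 to 758 in CON, with the lowest value of each diet in SA 1 and CON 2. In the pituitary-labelled libraries it was 979 in SA 4, against 165 to 361 in the other 3 SA libraries and 217 to 245 in CON. In the hypothalamus-labelled libraries it was 320 to 387 in SA and 309 to 436 in CON.

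The members varied together to unlike degrees, and the lowest correlations involved ND1. After each tissue's mean was subtracted, the correlation of log2(TPM + 1) over the 32 libraries was highest between ND3 and ND4, at 0.91, and lowest between ND1 and ND5, at 0.21. ND1 correlated at 0.80 with its neighbour ND2 and at 0.37 with ND4L. The pairs without ND1 ran from 0.58, between ND2 and ND5, to 0.91. ND4 and ND4L, whose genes overlap, correlated at 0.80. The libraries share the scale of TPM, so genes that take a large share of a library correlate in part through it.

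Among 16345 genes outside the mitochondrial genome, those most like the mean of the 6 members by the same measure were ENSOARG00020039663 at 0.84, ENSOARG00020027838 at 0.83, CNTD1 at 0.83, CCDC152 at 0.81 and TMEM265 at 0.79. Over the 24 libraries without liver these correlations lay between 0.67 and 0.75. CCDC152 stood at 0.08 TPM or less in every hypothalamus-labelled and pituitary-labelled library. Its correlation without liver, 0.67, therefore rests almost wholly on the tail fat libraries. The most opposite were ENSOARG00020026761 and RAB5A at -0.95, WBP2 at -0.95, EIF3G at -0.95 and MRPL45 at -0.95. Without liver these lay between -0.95 and -0.92. TPM is relative, so nuclear-encoded genes tend to fall by construction where the members take more of a library. The difference between the diets was not removed, and none of these correlations was tested. RAB5A acts in early endosomes, EIF3G in translation initiation and MRPL45 in the mitochondrial ribosome. CCDC152 is the gene by which the libraries split.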

How the data were processed

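Poly(A) RNA was captured with oligo(dT), made into stranded libraries and sequenced on a NovaSeq, per the labels' protocols. The tools fastp, HISAT2 and RSEM are named, without versions, per the submitters' processing notes. The sources used here name no genome build, annotation or strand setting. The authors deposited TPM values for 30722 Ensembl genes in 32 libraries, summing to 936939 to 987320 per library, with no record of depth. The 8 deposited group means were not used. RefSeq gene names of assembly ARS-UI_Ramb_v3.0 gave neighbours and overlaps only.

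Genes reaching 1 TPM in 4 or more fitted libraries entered limma 3.58.1 (R 4.3.3) as log2(TPM + 1), with trended, robust empirical Bayes moderation, two-sided, at an adjusted p of 0.05. This scale understates changes of low genes. Each tissue was fitted alone for diet. The interaction used all 32 libraries and the tissue contrasts the 16 CON libraries, with no term for the sheep. The diet fit was tested on simulated data. Other scalings, filters, pseudocounts, weights, blocks and left-out libraries were tried. The named genes were all 7 members, the other mitochondrially encoded protein genes, up to 4 called members of each nuclear list by smallest p in liver, and the 5 genes with the highest and the 5 with the lowest correlation. The values of 1 nuclear gene that this rule names are not reported here. Of the lists, 7 of 7 nuclear core subunits, 21 of 30 accessory subunits, 15 of 18 assembly factors, 24 of 25 RNA processing and 11 of 12 DNA maintenance genes were found by symbol. Members and lists were chosen with earlier results of these data known. Sequences were not used here.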

Additional observations from a re-analysis of the deposited data

Results flagged for a closer look

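Of 88 sets of 4 values checked (each measured member and 5 summary ratios in each group), 7 held a value far from the other 3, where chance gives about 1 in 20. ND1 was low in hypothalamus SA 2, at 4543 TPM, and in liver CON 1, at 3429 TPM. The ratio of ND1 to ND2 was also low in hypothalamus SA 2, at 0.302. ND2 was slightly low in pituitary CON 4, at 20102 TPM, close to the other 3 values of a tight group. ND5 was low in hypothalamus SA 4, at 1003 TPM. The ratio of ND4L to ND4 was low in liver CON 4, at 1.20, and high in tail fat CON 2, at 1.02. The diet effect differed between tissues in the limma interaction test for ND2 (adjusted p = 0.00450), ND3 (adjusted p = 0.000349), ND4 (adjusted p = 0.0118) and ND5 (adjusted p = 0.00422). In all 4 the liver estimate was the highest of the tissues and the tail fat estimate the lowest. The part of library composition in these differences was not tested.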

How the results depend on the processing

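In liver, ND2, ND3, ND4 and ND5 were called higher in SA under every alternative except scaling to mitochondrially encoded protein transcripts, where ND2 alone (1 of 6) was called. The adjusted p-values of ND2 ran from 0.000104 to 0.0439 in limma over all alternatives. ND1 lost its call without a filter, under quantile normalization, mitochondrial scaling, the replicate block and the joint fit, and leaving out single libraries gave 4 to 5 members. Why single calls were lost was not tested. The depth behind TPM is unknown, so counting error cannot be given.

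All-gene counts moved by more than 1.5 times as follows. Hypothalamus had 3 calls in the joint fit and 0 to 1 without single libraries. Pituitary had 7 under mitochondrial scaling, 165 with array weights, 4 in the joint fit and 0 to 1 without single libraries. Liver had 4326 under quantile normalization (1886 higher, 2440 lower) and 3951 under nuclear scaling (1723 higher, 2228 lower), against 603 higher and 6842 lower as deposited. Tail fat, with 78 calls, had 0 without a filter, 415 under quantile normalization, 1160 under nuclear scaling (129 higher, 1031 lower), 13 under mitochondrial scaling (11 higher, 2 lower), 2839 with array weights, 413 with the replicate block, 36 without trend and robust settings, 346 without SA 1 and CON 2, 1938 in the joint fit and 3 to 261 without single libraries. The interaction, with 4414 calls, had 7106 under mitochondrial scaling and 10046 with array weights. Hypothalamus minus pituitary, with 2087 calls, had 1343 under mitochondrial scaling, 5323 with array weights and 1534 to 3188 without single libraries.

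Counts of the 6 members moved to 2 in tail fat with array weights (ND3 and ND5, lower) and to 0 in the interaction under mitochondrial scaling. Under mitochondrial scaling, liver minus tail fat and liver minus hypothalamus each had 2. Those fits called 4832 and 3653 of 15929 genes higher, and 1187 and 4167 lower. With array weights, liver minus pituitary had 5, tail fat minus pituitary 2 and hypothalamus minus pituitary 1. Under quantile normalization, tail fat minus hypothalamus and tail fat minus pituitary each had 1. Without single libraries the counts were 3 to 5 for liver minus hypothalamus, 3 to 5 for liver minus pituitary, 0 to 2 for tail fat minus hypothalamus and 0 to 3 for tail fat minus pituitary.

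The log2 changes that turned were, except for ND4 and ND4L in liver minus hypothalamus, not called before. Under quantile normalization they were ND3 in hypothalamus (-0.064), ND2, ND3 and ND4 in pituitary (-0.053, -0.033 and -0.14), ND4L in liver (-0.42), ND4 in tail fat (0.082), ND4L in liver minus tail fat (0.23) and liver minus pituitary (0.14), ND5 in tail fat minus hypothalamus (-0.43), ND4L in tail fat minus pituitary (-0.085), and ND2 and ND4 in hypothalamus minus pituitary (-0.10 and -0.078). Under mitochondrial scaling they were ND3 in hypothalamus (-0.021), ND4L in liver (-0.71), ND4 and ND4L in tail fat (0.10 and 0.042), ND1 and ND4L in liver minus tail fat (0.57 and 0.66), ND1, ND4 and ND4L in liver minus hypothalamus (0.17, 0.22 and 0.44), ND4 and ND4L in liver minus pituitary (0.35 and 0.63), ND4L in tail fat minus pituitary (-0.031) and ND2 in hypothalamus minus pituitary (-0.065). Array weights turned ND2 and ND3 in pituitary (-0.17 and -0.20), nuclear scaling turned ND1 in pituitary (0.0014) and in hypothalamus minus pituitary (0.15), and leaving out SA 1 and CON 2 turned ND1 in tail fat (-0.21).

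Leaving out single libraries also turned some of these estimates. In hypothalamus ND1 ranged from -0.58 to 0.055, ND2 from -0.21 to 0.058, ND3 from -0.085 to 0.11 and ND4 from -0.022 to 0.13. In pituitary ND1 ranged from -0.53 to 0.31 and ND2 from -0.060 to 0.56. In tail fat ND1 ranged from -0.27 to 0.84, ND2 from -0.84 to 0.0089 and ND4 from -0.54 to 0.10. ND1 ranged from -1.003 to 0.10 in liver minus tail fat, from -0.98 to 0.13 in tail fat minus hypothalamus, from -1.02 to 0.079 in tail fat minus pituitary and from -0.12 to 0.024 in hypothalamus minus pituitary. In tail fat minus hypothalamus ND3 ranged from -0.097 to 0.62 and ND4 from -0.075 to 0.55, and in tail fat minus pituitary ND4L ranged from -0.12 to 0.35.

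Whether equal library numbers mark 1 sheep is not given by the labels, and the pairs differed by diet. Between tissues, 6 of 24 same-numbered SA pairs correlated above 0.1 (range -0.074 to 0.34) and 16 of 24 were best with their own number, among them all 4 of hypothalamus with pituitary (0.093 to 0.34). Of the CON pairs, 1 of 24 correlated above 0.1 (range -0.28 to 0.11) and 4 of 24 were best with their own number. The own number was 1 of 4 candidates each time. Of same-numbered SA and CON libraries of a tissue, 3 of 16 correlated above 0.1. Numbers were therefore not used as a pairing of the diets. With the replicate block 4 members were called in liver (ND1 had an adjusted p of 0.0650 in limma) and 4 in the interaction, and ND4L lost its call in liver minus hypothalamus (adjusted p 0.0641). Treating diet and number together as the animal, an alternative chosen after seeing the data, left 4 members called in the interaction.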
